A study of Mus musculus with 7 samples.

Results

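Interferon-stimulated genes were examined in the left ventricle of mice with a missense variant of titin, the giant elastic protein of the sarcomere. The set consisted of 40 genes listed by name, and its members were found in the count table through their Ensembl identifiers. An entry was found for 39 of the 40, among 20927 entries in all. *Mx1*, an antiviral GTPase, was not analysed here. All 39 passed the filter of at least 10 counts in at least 3 libraries, as did 13894 entries overall.

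Interferons are secreted signalling proteins, of which type I and type III are released by cells that sense foreign or misplaced nucleic acid and interferon gamma mainly by activated T and NK cells. They bind receptors at the cell surface, whose Janus kinases phosphorylate STAT proteins, and STAT and IRF transcription factors then switch on antiviral and antigen-presenting genes. In the heart these genes are best known from viral myocarditis, and many of them are also transcribed at a basal level without infection.

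Left ventricles came from 3 WT mice, carrying the replicate numbers 1, 3 and 4, and from 4 mice homozygous for titin A178D, numbered 1 to 4. All were labelled as C57BL/6J, were not described as treated, and gave 1 library each. The variant had been made by CRISPR-Cas9 editing of C57BL/6N embryonic stem cells and backcrossed to C57BL/6J, so that chromosome segments near *Ttn* and the genotype cannot be told apart. The labels give neither the age nor the sex of these 7 animals. The libraries held 51797208, 54245530 and 41102868 counts in WT replicates 1, 3 and 4, and 40623300, 52345529, 42174448 and 33080675 counts in A178D replicates 1 to 4. Levels are given as CPM, which are counts scaled to a common library total after TMM normalization. The edited gene itself, *Ttn*, was at 6659 ± 521 CPM (SD, n = 3) in WT and 5528 ± 1072 CPM (SD, n = 4) in A178D hearts, with a log2 fold change of -0.27 (SE 0.12, edgeR adjusted p = 0.287). Among the A178D hearts replicate 4 was lowest at 4087 CPM, with the others between 5361 and 6490 CPM. That heart, the shallowest library, was also the highest of the 7 in 23.3% and the lowest in 24.3% of all tested genes. A count per gene does not show the substitution and so does not check the genotype.

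The comparison asked whether the transcripts of interferon-stimulated genes differ between A178D and WT hearts. Most members were slightly higher on average in A178D hearts, with the genotypes overlapping in all but *Lgals3bp*. Of the 39 tested members, 31 had a log2 fold change above 0, where 50.5% of all tested genes did, and the median was 0.15 against 0.00 for all tested genes. The members' median SD between hearts of the same genotype was larger, at 0.24. In some members, *Isg15* and *Lgals3bp* among them, the difference was above the gene's own SD. No member was called higher at an edgeR adjusted p under 0.05, where 1.04% of all tested genes were, and none was called lower, where 1.31% were. At an unadjusted p under 0.05, 3 members were higher (7.93% of all tested genes) and 0 were lower (8.81%). DESeq2 called 1 member higher, *Lgals3bp*, where it called 2.2% of the genes it tested. With limma-voom 0 members were called higher, where 148 of all genes were. The groups did not overlap in 1 member, again *Lgals3bp*, which was higher in all 4 A178D hearts (7.61% of all tested genes), and in 0 members that were lower (8.52%). In whole ventricle, fewer cells of a type and less RNA per cell cannot be told apart, nor can more of either. Each heart gave 1 library, so the p-values measure the spread between these hearts.

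Single hearts weighed heavily on this shift. Without A178D replicate 2 the median log2 fold change of the members was 0.03 with 23 above 0, and without WT replicate 1 it was 0.05 with 23 above 0. Without WT replicate 3 it was 0.24 with 36 above 0. With the replicate number as a term in the fit, the median was 0.07 with 24 above 0. No WT heart carries the number 2, so that fit too draws the genotype difference without A178D replicate 2. The sign of the log2 fold change held in all 16 alternatives for 22 of the 39 members. A178D replicate 2 had the highest level of all 7 hearts in 31 of the 39 members, where it was highest in 9.36% of all tested genes. WT replicate 1 had the lowest level in 23 members, against 16.4% of all tested genes. Within the WT group, replicate 3 was highest in 33 and replicate 1 lowest in 32 of the 39 members, where these shares were 32.3% and 35.6% among all tested genes. Within the A178D group, replicate 2 was highest in 33 members (21.4% of all tested genes) and replicate 4 lowest in 21 (34.5%).

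On the log2 scale and relative to the mean of the 7 hearts, the median member was at -0.27 in WT replicate 1 and at 0.30 in A178D replicate 2. WT replicate 3 was at 0.15, WT replicate 4 at -0.03, A178D replicates 1 and 4 both at -0.08 and A178D replicate 3 at 0.06. The order of the hearts by the median member therefore mixed the genotypes. The members also spread more within a genotype than most genes: their median SD between hearts of the same genotype was 0.24 on the log2 scale, against 0.14 for all tested genes, and 30 of the 39 lay above the latter. The summed level of the members was 772, 1051 and 951 CPM in WT replicates 1, 3 and 4, and 899, 1263, 1017 and 861 CPM in A178D replicates 1 to 4. By this sum too the groups overlapped, with the lowest heart in WT and the highest in A178D.

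**Figure D1:**
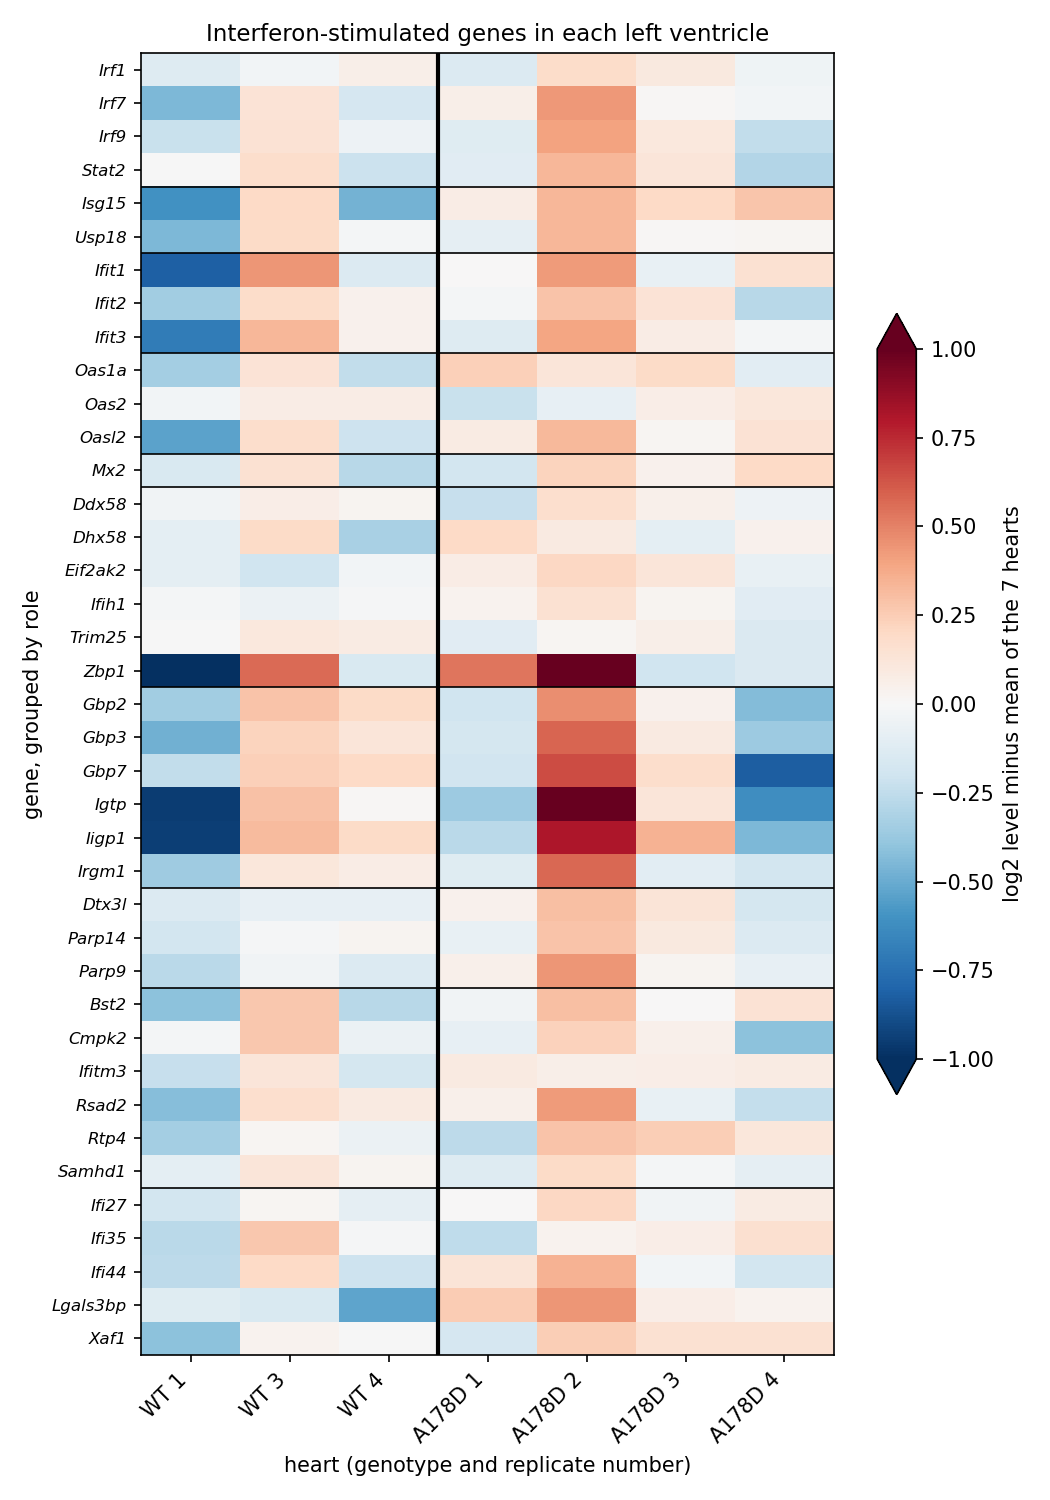
Log2 level of each of 39 interferon-stimulated genes (vertical axis, grouped by role) in each of 7 left ventricles (horizontal axis), as the difference from that gene's mean over the hearts, in red above and in blue below it, with colours that saturate at 1 and -1. A178D replicate 2 is highest in 31 genes and WT replicate 1 lowest in 23.

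Ligands of the pathway were near or below detection. Of 12 interferon genes listed, 11 had no count in any heart, among them *Ifnb1*, which encodes interferon beta, and the listed alpha and lambda interferons. If each count were 1 molecule, a count of 0 would allow up to 3 counts, and this limit covers counting error only. It corresponds to 0.055 CPM in WT replicate 3 and to 0.0926 CPM in A178D replicate 4, the deepest and the shallowest library. However, between 17.6% and 20.3% of the counts from 1 to 20 in a library were odd. A molecule may therefore often give 2 counts, and these limits may be too low. *Ifng*, which encodes interferon gamma, had 2 counts in WT replicate 1, which may stand for 1 molecule, and 0 elsewhere. Transcripts of these 12 genes were thus not detectable at this depth in either genotype, apart from the 2 counts of *Ifng*.

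Receptor transcripts were present in all hearts. All 6 receptor genes listed were tested, edgeR called 0 in either direction (1.04% of all tested genes higher, 1.31% lower), 1 was higher at an unadjusted p under 0.05 (7.93%), and their median log2 fold change was 0.01. The most abundant per length was *Ifngr2*, the signalling chain of the interferon gamma receptor, with a mean level of 67.3 CPM per kb over the 7 hearts. It was at 253 ± 4.36 CPM (SD, n = 3) in WT and 254 ± 15.2 CPM (SD, n = 4) in A178D hearts. *Ifnlr1*, which encodes the specific chain of the lambda interferon receptor, was at 6.00 ± 0.224 and 7.47 ± 0.206 CPM in WT and A178D, a log2 fold change of 0.32 (SE 0.11) that did not pass the test (edgeR adjusted p = 0.183).

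Among the receptor kinases and STATs, 1 of 5 genes was called by edgeR, and it was lower in A178D, as were 1.31% of all tested genes. *Jak1*, the kinase used by all interferon receptors, was at 231, 252 and 244 CPM in WT replicates 1, 3 and 4 and at 203, 192, 198 and 184 CPM in A178D replicates 1 to 4. All 4 A178D hearts lay below all WT hearts, A178D replicate 4 lowest. *Jak1* fell by 0.32 on the log2 scale (SE 0.07, edgeR adjusted p = 0.025). Of 7 fits with 1 heart omitted, those without WT replicate 1 and without A178D replicate 4 called it (adjusted p = 0.0189 and 0.0269). In the other 5 its adjusted p was 0.059 without A178D replicate 1, 0.0622 without A178D replicate 3, 0.07 without A178D replicate 2, 0.0975 without WT replicate 4 and 0.153 without WT replicate 3. With the replicate number as a term (replicate block), edgeR gave an adjusted p of 0.0941. Its log2 fold change was -0.31 in that fit and lay between -0.35 and -0.29 with 1 heart omitted. *Jak2*, the partner of *Jak1* at the interferon gamma receptor, was at 43.5 ± 1.37 CPM in WT and 37.4 ± 1.05 CPM in A178D, with a log2 fold change of -0.22 (SE 0.07, edgeR adjusted p = 0.136). *Stat3* was the most abundant transcription factor of the pathway lists per length, at 15.4 CPM per kb, with a log2 fold change of -0.07 (SE 0.07, edgeR adjusted p = 0.656).

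Of the members, the transcription factors *Irf1*, *Irf7*, *Irf9* and *Stat2* had log2 fold changes of 0.06, 0.28, 0.10 and 0.04, and all were highest in A178D replicate 2. *Irf9* and *Stat2* encode subunits of the ISGF3 complex, and *Irf7* amplifies the production of type I interferon. *Irf7* was at 13.7, 20.5 and 16.6 CPM in WT replicates 1, 3 and 4 and at 19.5, 25.3, 18.8 and 18.4 CPM in A178D replicates 1 to 4. A178D replicate 2 stood apart from the other A178D hearts, while WT replicate 3 lay above 3 of the 4 A178D hearts. The difference had an SE of 0.14 and did not pass the test (edgeR adjusted p = 0.352). It was 0.16 without A178D replicate 2, 0.15 without WT replicate 1 and 0.44 without WT replicate 3. Without A178D replicate 2, *Irf1*, *Irf9* and *Stat2* were at 0.0087, -0.04 and -0.08, and without WT replicate 1 *Irf1* was at 0.015. *Irf1*, the factor induced mainly by interferon gamma, was the most abundant of the 4 per length, with a mean of 9.06 CPM per kb. It ranged from 32.8 to 37.5 CPM in WT and from 32.6 to 40.7 CPM in A178D. On the annotation *Irf9* overlaps *Rnf31* on the same strand, so that some of its counts are uncertain, and *Irf7* overlaps *Phrf1* on the opposite strand. None of the 5 other interferon regulatory factors listed was called in edgeR (1.04% of all tested genes higher, 1.31% lower). *Irf8*, a factor of myeloid cells, had a log2 fold change of 0.37 (SE 0.15, edgeR adjusted p = 0.229), from 4.75 ± 0.188 to 6.13 ± 0.931 CPM.

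*Isg15* encodes a ubiquitin-like protein that is joined to other proteins after interferon exposure, and *Usp18* the protease that removes it and also damps receptor signalling. *Isg15* was at 3.61, 6.40 and 3.99 CPM in WT replicates 1, 3 and 4 and at 5.85, 7.02, 6.42 and 6.76 CPM in A178D replicates 1 to 4. WT replicates 1 and 4 were low, whereas WT replicate 3 lay within the A178D values, just below replicate 3 of that group. The log2 fold change was 0.48 (SE 0.18), which ranked 3 among the members, with an unadjusted p of 0.0219 and an edgeR adjusted p of 0.213. It was 0.32 without WT replicate 1 and 0.78 without WT replicate 3. *Usp18* was at 4.12 ± 0.915 CPM (SD, n = 3) in WT and 4.57 ± 0.624 CPM (SD, n = 4) in A178D.

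The IFIT proteins bind viral RNA and block its translation. *Ifit1*, *Ifit2* and *Ifit3* lie on chromosome 19 between positions 34550694 and 34650009, with *Ifit3b* between *Ifit3* and *Ifit1*. *Ifit1* was at 5.17, 12.5 and 8.32 CPM in WT replicates 1, 3 and 4 and at 9.22, 12.4, 8.69 and 10.2 CPM in A178D replicates 1 to 4. The lowest and the highest heart were both WT, so that the A178D values lay inside the WT range. Its log2 fold change was 0.22 (SE 0.22, edgeR adjusted p = 0.659), and it was -0.04 without WT replicate 1, 0.11 without A178D replicate 2 and 0.60 without WT replicate 3. *Ifit2* and *Ifit3* had log2 fold changes of 0.07 and 0.14, and both were lowest in WT replicate 1 and highest in A178D replicate 2. Without WT replicate 1 they were at -0.06 and -0.10. *Ifit3* has a near-identical neighbour, *Ifit3b*, with which it may share reads, so that its level is uncertain.

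The oligoadenylate synthetases make a messenger that activates RNase L. *Oasl2*, a relative with ubiquitin-like domains, and *Oas1a* had log2 fold changes of 0.31 (SE 0.15) and 0.26 (SE 0.17), and neither passed the test. They were at 0.15 and 0.16 without WT replicate 1, and at 0.52 and 0.42 without WT replicate 3. *Oas2* was at 17.0, 18.2 and 18.2 CPM in WT replicates 1, 3 and 4 and at 14.8, 16.3, 18.1 and 18.7 CPM in A178D replicates 1 to 4. A178D replicates 1 and 2 were lowest and A178D replicate 4 highest, which differs from the order seen in most members. The log2 fold change was -0.07 (SE 0.10, edgeR adjusted p = 0.789), among the 3 lowest of the members. It was -0.0066 without A178D replicate 1 and -0.11 without A178D replicate 4. *Mx2*, an antiviral GTPase related to *Mx1*, was at 2.72 ± 0.439 CPM in WT and 3.05 ± 0.394 CPM in A178D.

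The cytosolic sensors differed in how much they varied. *Ifih1* and *Ddx58*, which encode the RNA helicases MDA5 and RIG-I, were among the steadiest members, at 15.1 ± 0.268 and 22.2 ± 0.752 CPM in WT and at 15.7 ± 1.18 and 21.8 ± 2.54 CPM in A178D. *Dhx58*, which encodes the related helicase LGP2, and *Eif2ak2*, which encodes the RNA-activated kinase PKR, had log2 fold changes of 0.12 (SE 0.18) and 0.19 (SE 0.09). With 1 heart omitted *Dhx58* ranged from 0.0079 to 0.28. *Trim25*, the ubiquitin ligase that acts on RIG-I, was at 53.8, 57.9 and 57.0 CPM in WT replicates 1, 3 and 4 and at 49.8, 54.5, 56.0 and 48.7 CPM in A178D replicates 1 to 4. A178D replicates 1 and 4 lay below the WT hearts and the other A178D hearts among them. Its log2 fold change of -0.11 was the lowest of the members and did not pass the test (SE 0.08, edgeR adjusted p = 0.521).

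*Zbp1*, a sensor of left-handed nucleic acid, had the largest log2 fold change of the members and the lowest level per length, 0.554 CPM per kb. It was at 0.438, 2.53 and 1.50 CPM in WT replicates 1, 3 and 4 and at 2.48, 3.78, 1.45 and 1.51 CPM in A178D replicates 1 to 4. WT replicate 1, with 23 counts, was far below all other hearts, and the remaining WT hearts lay within the A178D range. The log2 fold change was 0.64 (SE 0.46, edgeR adjusted p = 0.521), and it was 0.20 without WT replicate 1, 0.29 without A178D replicate 2 and 1.30 without WT replicate 3. *Ifih1*, *Samhd1* and *Zbp1* lie on chromosome 2, as does *Ttn* (76703980 to 76982547), at distances of 14.1, 80.1 and 96.2 Mb from it.

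Guanylate-binding proteins and immunity-related GTPases attack the membranes around intracellular microbes and are typical targets of interferon gamma. All 6 members of this group were highest in A178D replicate 2, where their median lay 0.62 above the mean of the hearts on the log2 scale. The same median was -0.42 in WT replicate 1 and -0.44 in A178D replicate 4, and it was 0.26 in WT replicate 3. The IFIT median was -0.70 in WT replicate 1 and -0.02 in A178D replicate 4, where the IFIT genes differed among themselves, with *Ifit1* at 0.15, *Ifit3* at -0.02 and *Ifit2* at -0.28.

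*Igtp* had the largest coefficient of variation of the members, 67.1% over the 7 hearts. It was at 14.3, 34.0 and 28.0 CPM in WT replicates 1, 3 and 4 and at 21.6, 78.2, 30.2 and 18.04 CPM in A178D replicates 1 to 4. A178D replicate 2 was far above every other heart, and the other A178D hearts lay within the WT range. The log2 fold change of 0.55 (SE 0.41, edgeR adjusted p = 0.538) became -0.12 without A178D replicate 2 and 0.27 without WT replicate 1. *Igtp* (chromosome 11, 58199556 to 58207591) overlaps *Irgm2* (58199618 to 58222782) on the same strand, so that counts of these genes may not be separate, and *Irgm2* also peaked in A178D replicate 2, at 106 CPM. *Iigp1* was at 50.9, 122 and 112 CPM in WT replicates 1, 3 and 4 and at 81.3, 172, 125 and 72.0 CPM in A178D replicates 1 to 4. WT replicate 1 was lowest and A178D replicate 2 highest, with the genotypes interleaved (log2 fold change 0.25, SE 0.29, edgeR adjusted p = 0.717). Without A178D replicate 2 the log2 fold change was -0.03, and without WT replicate 1 it was -0.05. It was 0.37 without A178D replicate 1, 0.41 without A178D replicate 4, 0.47 without WT replicate 3 and 0.38 without WT replicate 4. *Irgm1*, a regulator of the other GTPases, was at 25.3, 35.1 and 34.1 CPM in WT replicates 1, 3 and 4 and at 29.8, 48.2, 30.2 and 28.6 CPM in A178D replicates 1 to 4. A178D replicate 2 again stood apart, and the other A178D hearts lay within the WT values. Its log2 fold change was 0.12, and -0.09 without A178D replicate 2. Another entry of the table held the same counts as *Irgm1*, and both were kept as 1 gene.

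*Gbp2*, *Gbp3* and *Gbp7* are neighbours on chromosome 3, between 142530342 and 142638008. *Gbp7* was at 24.9, 34.9 and 34.0 CPM in WT replicates 1, 3 and 4 and at 26.0, 46.7, 33.5 and 16.7 CPM in A178D replicates 1 to 4. Both the highest and the lowest heart were A178D, so that its log2 fold change was near 0, at -0.02 (SE 0.24, edgeR adjusted p = 0.982). That value ranged from -0.29 without A178D replicate 2 to 0.18 without A178D replicate 4, and was above 0 also without A178D replicate 1, WT replicate 3 or WT replicate 4. In the replicate block it was -0.33. *Gbp2* and *Gbp3* were at 34.2 ± 7.51 and 25.1 ± 6.11 CPM in WT and at 32.8 ± 9.04 and 26.8 ± 8.07 CPM in A178D.

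PARP9 and DTX3L form a complex that modifies histones, and PARP14 is a related ADP-ribosyltransferase. Their genes lie within chromosome 16 from 35832874 to 35972605, *Parp9* and *Dtx3l* overlapping at their ends on opposite strands. *Parp9* was at 21.4, 25.2 and 23.4 CPM in WT replicates 1, 3 and 4 and at 26.6, 35.0, 26.3 and 24.4 CPM in A178D replicates 1 to 4. Only A178D replicate 4 lay below a WT heart, and A178D replicate 2 was clearly highest. The log2 fold change was 0.27 (SE 0.12), with an unadjusted p of 0.0379 and an edgeR adjusted p of 0.266, and it was 0.15 without A178D replicate 2. *Dtx3l* and *Parp14* had log2 fold changes of 0.19 (SE 0.10) and 0.11 (SE 0.10), and without A178D replicate 2 they were at 0.11 and 0.024.

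Effectors at membranes and in nucleotide metabolism included the most abundant members. *Ifitm3*, which hinders the fusion of enveloped viruses, led all members with 103 CPM per kb. It was at 59.3, 75.9 and 61.6 CPM in WT replicates 1, 3 and 4 and at 74.1, 72.7, 73.0 and 73.8 CPM in A178D replicates 1 to 4. The A178D hearts were nearly equal, and WT replicate 3 exceeded all of them (log2 fold change 0.16, SE 0.09, edgeR adjusted p = 0.367). Omitting WT replicate 1 gave 0.10, omitting WT replicate 3 gave 0.28, and offsets for length and GC content gave 0.018. *Bst2*, which encodes tetherin, followed with 27.1 CPM per kb. It was at 18.1, 29.2 and 19.9 CPM in WT replicates 1, 3 and 4 and at 23.6, 29.8, 24.2 and 26.7 CPM in A178D replicates 1 to 4. WT replicates 1 and 4 were low and WT replicate 3 was close to the highest A178D heart (log2 fold change 0.22, SE 0.14, edgeR adjusted p = 0.485). Omitting WT replicate 1, 3 or 4 gave 0.087, 0.46 and 0.14 respectively, and the offsets gave 0.089. *Cmpk2*, a mitochondrial nucleotide kinase, was at 12.8, 15.7 and 12.5 CPM in WT replicates 1, 3 and 4 and at 12.3, 15.3, 13.5 and 9.76 CPM in A178D replicates 1 to 4. A178D replicate 4 was lowest and the other hearts overlapped (log2 fold change -0.10, SE 0.14, edgeR adjusted p = 0.765). Without A178D replicate 2 it was -0.20 and without WT replicate 4 -0.16, while it was 0.00096 without A178D replicate 4 and 0.0091 without WT replicate 3. *Rsad2*, which encodes viperin and lies 12752 bases from *Cmpk2* on chromosome 12, was at 26.7 ± 5.59 CPM in WT and 28.5 ± 5.84 CPM in A178D. *Rtp4*, a chaperone of membrane receptors that overlaps *Masp1* on the opposite strand, had a log2 fold change of 0.23 (SE 0.14), and *Samhd1*, which breaks down deoxynucleotides, one of -0.03 (SE 0.09). With 1 heart omitted these ranged from 0.14 to 0.34 and from -0.097 to 0.026.

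*Lgals3bp* came nearest to a call among all members. It encodes a secreted glycoprotein that binds galectins (chromosome 11, 118392751 to 118402092). Its level was 17.6, 17.3 and 13.3 CPM in WT replicates 1, 3 and 4 and 22.9, 26.1, 20.2 and 19.7 CPM in A178D replicates 1 to 4. All 4 A178D hearts lay above all 3 WT hearts, with WT replicate 4 lowest. The log2 fold change was 0.47 (SE 0.12), with an unadjusted p of 0.00215 and an edgeR adjusted p of 0.0694. Over all alternatives the adjusted p ranged from 0.0136 to 0.249, and it was under 0.05 with DESeq2 (0.0136), without a filter on low counts (0.0437) and without A178D replicate 4 (0.0444). *Ifi27*, a gene induced by type I interferon, was at 24.7, 28.4 and 26.4 CPM in WT replicates 1, 3 and 4 and at 28.1, 32.4, 27.5 and 29.8 CPM in A178D replicates 1 to 4. WT replicate 3 lay above A178D replicates 1 and 3 (log2 fold change 0.15, SE 0.09, edgeR adjusted p = 0.418). With offsets for length and GC content the log2 fold change was 0.032. *Ifi44*, *Xaf1* and *Ifi35* had log2 fold changes of 0.16, 0.22 and -0.01, and all overlapped between the genotypes. *Ifi44* was at 0.061 without A178D replicate 2 and 0.33 without WT replicate 3, *Xaf1* at 0.091 without WT replicate 1, and *Ifi35* at -0.13 without WT replicate 1 and 0.14 without WT replicate 3.

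**Figure D2:**
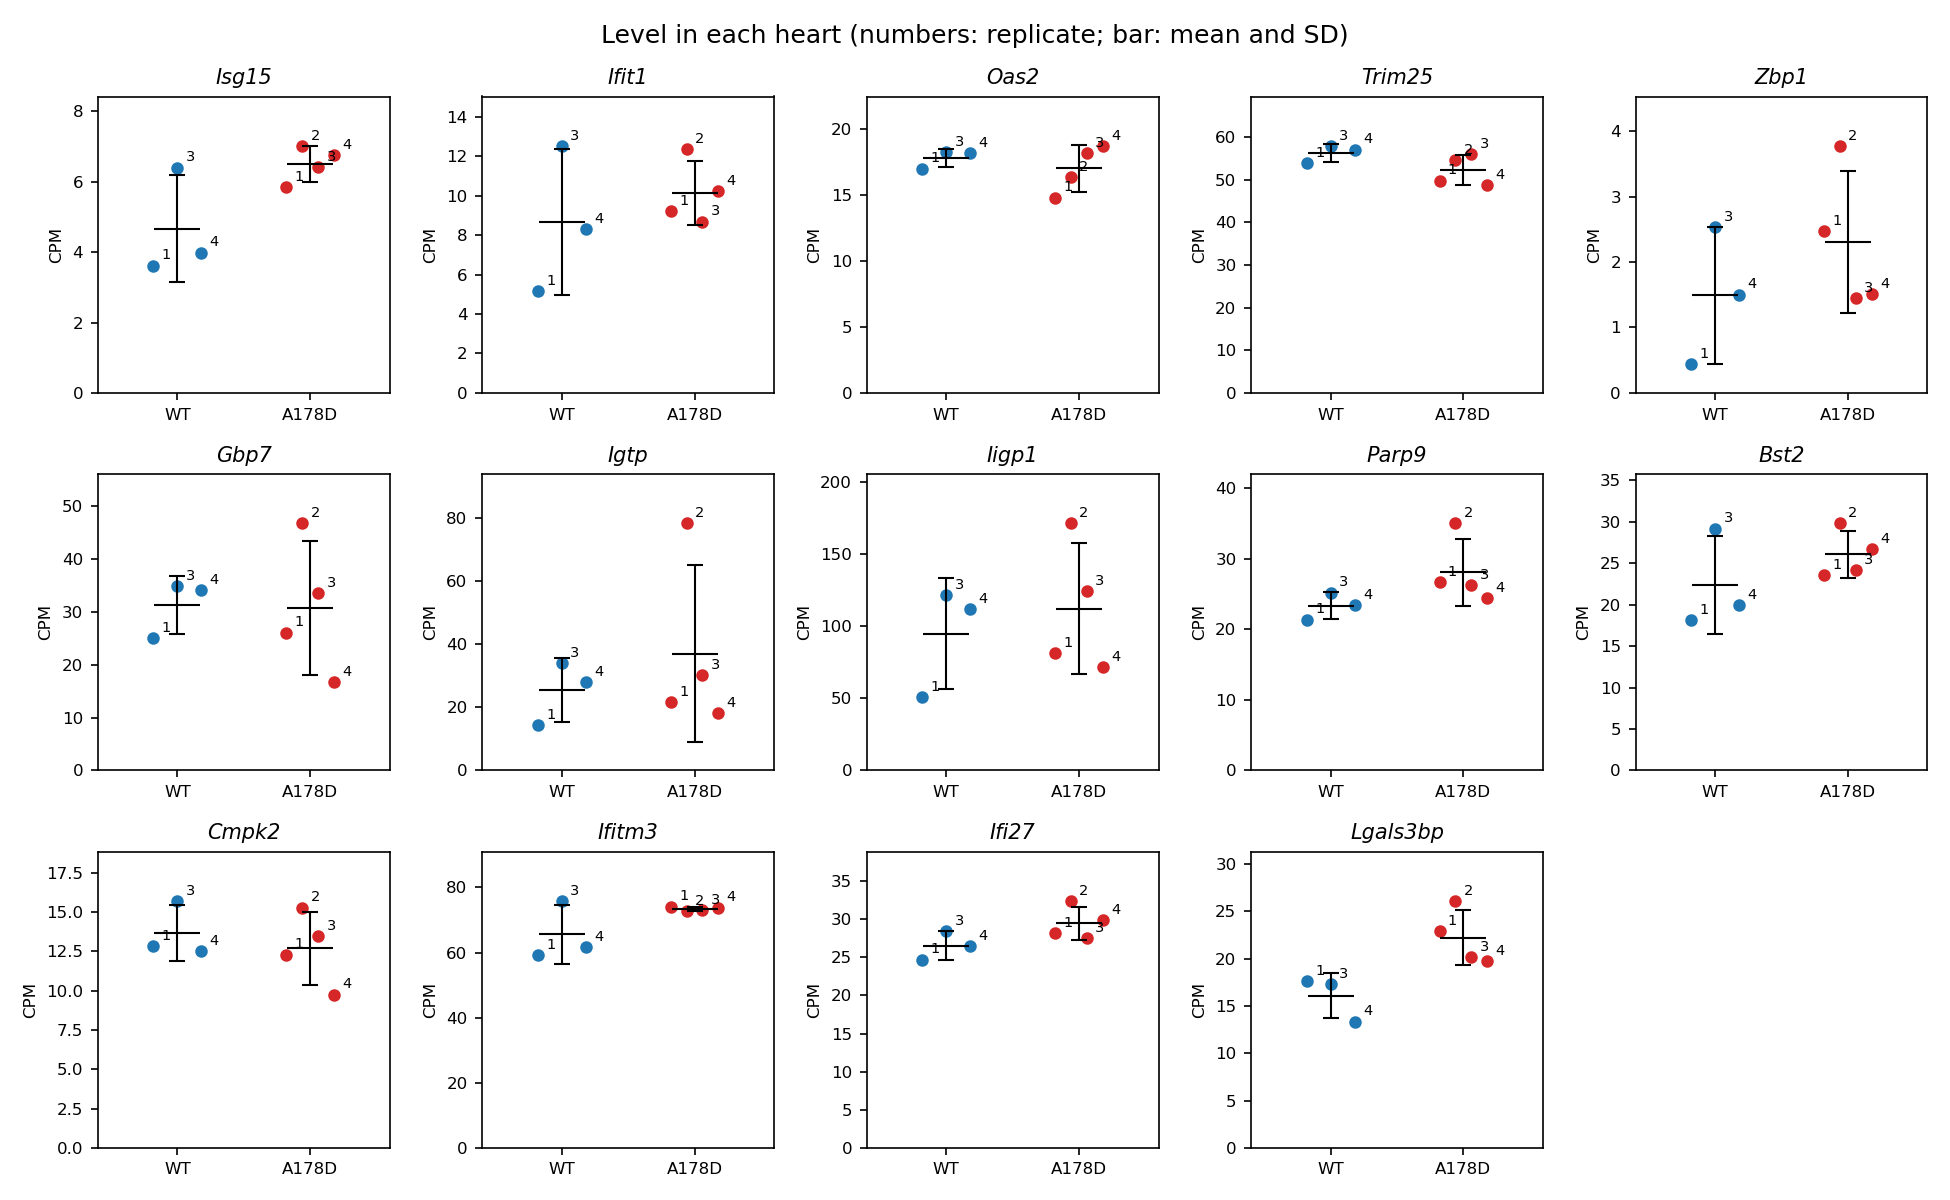
Level in CPM (vertical axes, from 0) of 14 interferon-stimulated genes in 3 WT (blue) and 4 A178D (red) left ventricles, with the mean and SD of each genotype in black and the replicate number beside each point. Only in *Lgals3bp* do the genotypes not overlap, and *Igtp* shows A178D replicate 2 at 78.2 CPM.

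**Figure D3:**
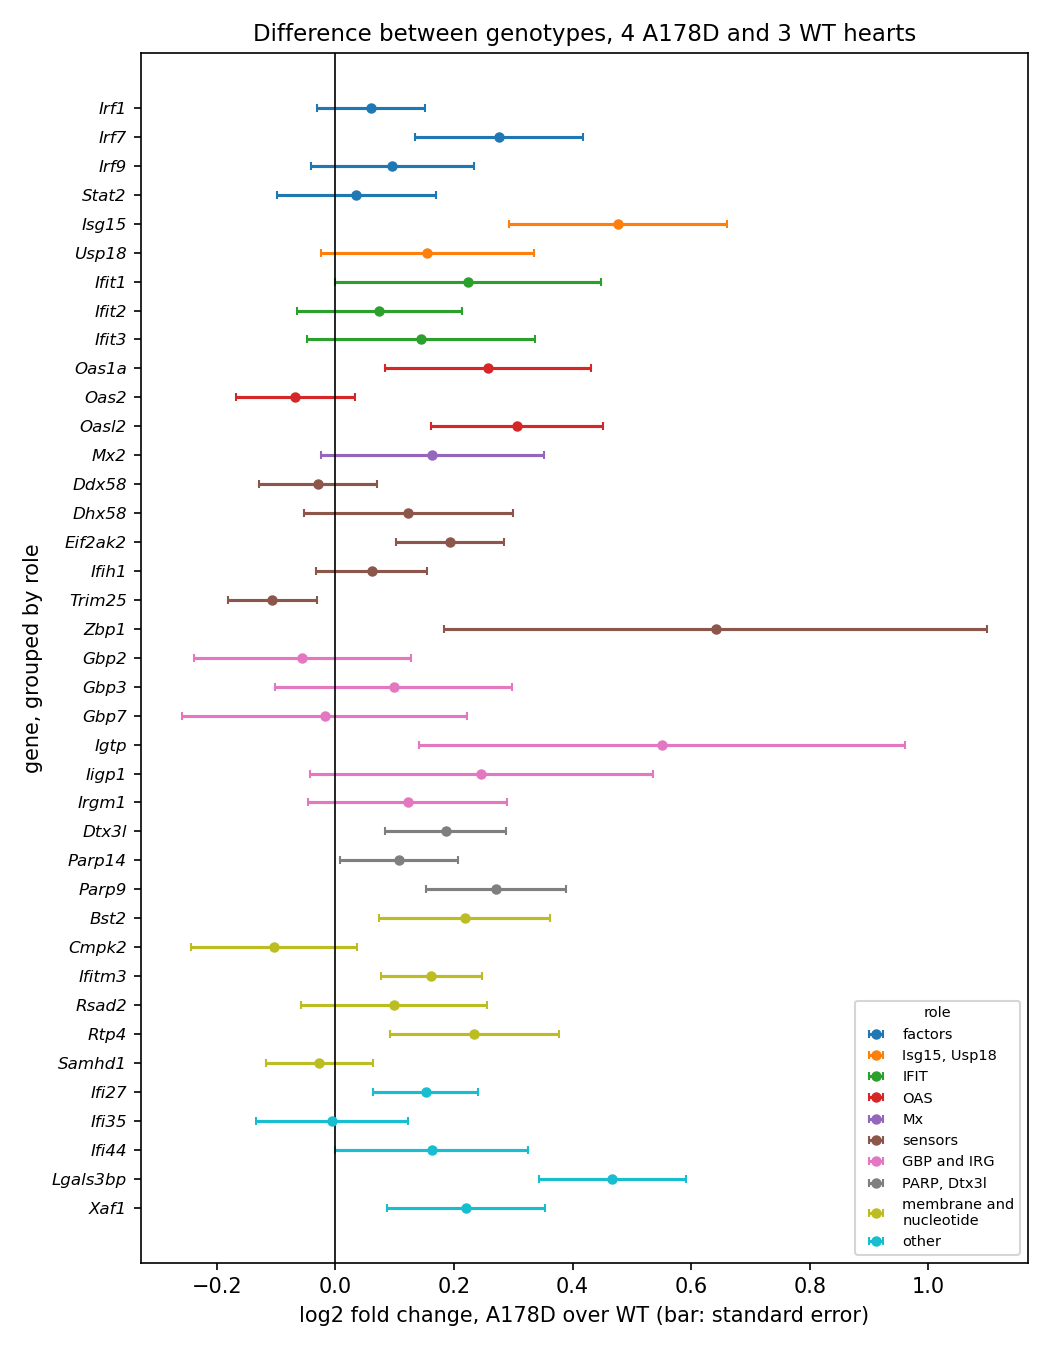
Log2 fold change of A178D over WT (horizontal axis) for 39 interferon-stimulated genes, coloured by role, with bars for the standard error. Of the points, 31 lie above 0, and none was called at an adjusted p under 0.05 in edgeR.

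Beyond the members, 113 further genes of the pathway were listed, of which 98 were tested. Of these, 61 were above and 37 below 0 in log2 fold change, where 50.5% of all tested genes were above, and the median was 0.04. In edgeR 1 was called higher (1.04% of all tested genes) and 1, *Jak1*, lower (1.31%). At an unadjusted p under 0.05, 10 were higher and 4 lower, where 7.93% and 8.81% of all tested genes were. The gene called higher was *Ifi27l2a*, a relative of *Ifi27* on the same chromosome (chromosome 12, 103442167 to 103443680). It was at 9.78, 15.9 and 15.7 CPM in WT replicates 1, 3 and 4 and at 28.2, 22.8, 21.6 and 26.6 CPM in A178D replicates 1 to 4. All 4 A178D hearts exceeded all WT hearts, and here A178D replicate 1, not 2, was highest. *Ifi27l2a* rose by 0.85 on the log2 scale (SE 0.16, edgeR adjusted p = 0.0144) and lost its call without A178D replicate 1 (log2 fold change 0.78, edgeR adjusted p = 0.0555).

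The 59 further interferon-stimulated genes gave 56 tested genes, of which 34 lay above 0 with a median log2 fold change of 0.05. A178D replicate 2 was highest of the hearts in 22 of these 56, where it was in 9.36% of all tested genes. A178D replicate 4 was lowest in 21 and WT replicate 1 in 19, where they were in 24.3% and 16.4% of all tested genes. *Slfn2*, a regulator of T cell and monocyte quiescence, had a log2 fold change of 0.46 (SE 0.14, edgeR adjusted p = 0.1). With DESeq2 its adjusted p was 0.0372, within a range of 0.0372 to 0.26 over the alternatives. *Oasl1* and *Epsti1* each had one of 0.67 (SE 0.26 in both), with edgeR adjusted p of 0.224 and 0.208. *Ifi203* and *Ifi207*, members of a family of DNA-binding proteins, were at -0.22 (SE 0.08) and -0.42 (SE 0.15), with edgeR adjusted p of 0.167 and 0.177. Without WT replicate 1 the edgeR adjusted p of *Ifi207* was 0.0223, within a range of 0.0223 to 0.536 over the alternatives, and without WT replicate 3 its log2 fold change was -0.24.

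Class I presentation, through which cells display peptides to T cells, comprised 9 genes with a median log2 fold change of 0.18. Of these, 8 were above 0 (50.5% of all tested genes) and 3 were higher at an unadjusted p under 0.05 (7.93%). In edgeR 0 were called (1.04% of all tested genes higher, 1.31% lower). A178D replicate 2 was highest of the hearts in 8 of the 9, where it was in 9.36% of all tested genes. The immunoproteasome genes *Psmb8*, *Psmb9* and *Psmb10* had log2 fold changes of 0.41 (SE 0.16), 0.40 (SE 0.17) and 0.25 (SE 0.08), with edgeR adjusted p of 0.223, 0.264 and 0.132. Without A178D replicate 2 the values of *Psmb8* and *Psmb9* were 0.25 and 0.20, and without WT replicate 1 that of *Psmb8* was 0.27. With length and GC offsets *Psmb10* was at 0.15. *B2m*, the light chain of class I molecules, was the most abundant per length, at 345 CPM per kb. It was at 276 ± 52.4 CPM in WT and 312 ± 76.9 CPM in A178D.

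Upstream sensors and adaptors had a median log2 fold change of 0.04 over 11 tested genes, and negative regulators one of 0.02 over 6. In edgeR 0 were called in each (1.04% of all tested genes higher, 1.31% lower). At an unadjusted p under 0.05, 1 of the former was higher, near the 7.93% of all tested genes, and 0 of the latter. *Myd88*, the adaptor of most Toll-like receptors, was at 15.2 ± 0.673 CPM in WT and 17.7 ± 0.132 CPM in A178D, a log2 fold change of 0.22 (SE 0.09, edgeR adjusted p = 0.218).

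Markers of cell types were read in the same fit. All 5 cardiomyocyte markers were present, which is what the labelled tissue would hold, and 1 of the 5 had a log2 fold change above 0. They summed to 72634, 77057 and 75931 CPM in WT replicates 1, 3 and 4 and to 72093, 72931, 70450 and 75983 CPM in A178D replicates 1 to 4, with *Actc1* the most abundant per length. The 7 macrophage markers were all above 0 in log2 fold change (50.5% of all tested genes), with a median of 0.29. Of these, 1 was called higher in edgeR (1.04% of all tested genes), 3 were higher at an unadjusted p under 0.05 (7.93%) and 2 did not overlap between the genotypes (7.61%). *Lyz2*, which encodes lysozyme and was the most abundant of them per length, rose from 128 ± 16.2 to 169 ± 12.0 CPM (log2 fold change 0.40, SE 0.09, edgeR adjusted p = 0.0339). It kept its call without A178D replicate 3 or 4 (adjusted p = 0.045 and 0.0475) and lost it without A178D replicate 1 (0.117), A178D replicate 2 (0.0621), WT replicate 1 (0.0706), WT replicate 3 (0.0915) or WT replicate 4 (0.0786). Its log2 fold change was between 0.30 and 0.46 in these fits. The macrophage markers summed to 261, 332 and 305 CPM in WT replicates 1, 3 and 4 and to 369, 374, 334 and 375 CPM in A178D replicates 1 to 4. WT replicate 1 was lowest in this sum and in that of the members. A178D replicates 4, 2 and 1 were close together at the top of it, whereas in the members' sum replicate 2 was highest and replicate 4 the lowest of the A178D hearts. The part of macrophages in the levels of the members was not tested.

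Other leukocyte markers were scarce. The 3 monocyte markers, all above 0 in log2 fold change, summed to between 5.06 and 9.64 CPM per heart, with *Ccr2* the most abundant per length and the highest sum in A178D replicate 2. T cell markers summed to between 1.86 and 3.52 CPM, with 3 of 4 tested above 0 and *Cd4* the most abundant per length. NK cell markers summed to 0.964 ± 0.691 CPM in WT and 0.808 ± 0.321 CPM in A178D, with 1 of 3 above 0 and *Nkg7* the most abundant. B cell markers summed to between 1.77 and 4.36 CPM, with 3 of 4 above 0 and *Cd79b* the most abundant. Dendritic cell markers summed to between 5.28 and 7.59 CPM, with 2 of 5 above 0 and *Clec9a* the most abundant. Neutrophil markers summed to between 1.77 and 4.51 CPM, with 3 of 3 tested above 0, *S100a9* the most abundant and *Ly6g* at 0 counts in every heart. Endothelial markers summed to 815 ± 72.9 CPM in WT and 799 ± 26.7 CPM in A178D, with 2 of 5 above 0 and *Cdh5* the most abundant per length. Fibroblast markers summed to 801 ± 44.5 CPM in WT and 839 ± 55.0 CPM in A178D, with 4 of 5 above 0 and *Dcn* the most abundant per length. In edgeR, *Lyz2* was the 1 marker called in these lists. The part of these cell types in the members' levels was not tested.

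The promoters of the members were read for short words bound by ISGF3, IRF and STAT proteins. RefSeq promoters of GRCm38.p6, from 250 bases before to 50 bases after the gene start, were found for 29 of the 40 members. The word GAAANNGAAA, the core of the interferon-stimulated response element bound by ISGF3 and IRF proteins, was present on either strand in 16 of these 29 (55.2%), against 3.99% of 27025 genes with such a promoter and 3.44% of 32851 promoters. The word TTCNNNGAA, the gamma-activated site bound by STAT dimers, which reads the same on both strands, was present in 10 of the 29 (34.5%), against 9.55% of genes and 8.3% of promoters. Matches to the words may overlap each other. Both words were present in 6 members (20.7%, against 0.614% of genes). Neither was present in 9, which were *Cmpk2*, *Dtx3l*, *Ifi44*, *Irf7*, *Irf9*, *Lgals3bp*, *Oasl2*, *Trim25* and *Xaf1*. Of these, *Cmpk2* and *Trim25* were highest in WT replicate 3, and the others, like most members, in A178D replicate 2. The members were listed as interferon-stimulated genes, so a high share of such words follows from the list. A link between the words and the levels in the hearts was not tested. A match is a description of the letters, and binding was not measured here.

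The stretches below lie upstream of the RefSeq start of genes that varied between hearts or are named above, which for *Irgm1* falls inside the gene as annotated in GENCODE M21, and show how the response element words repeat. The stretches are read 5′ to 3′ on the strand of the gene, with matches to GAAANNGAAA or its reverse complement in capitals. The *Isg15* stretch (chr4:156200850-156200921, minus strand) holds 3 overlapping matches, and those of *Ifit1* (chr19:34640760-34640838, plus strand), *Irgm1* (chr11:48871421-48871475, minus strand) and *Bst2* (chr8:71537562-71537627, minus strand) hold 2 each. The stretches of *Igtp* (chr11:58199497-58199555, plus strand) and *Gbp7* (chr3:142530258-142530317, plus strand) hold 1 each.
Isg15: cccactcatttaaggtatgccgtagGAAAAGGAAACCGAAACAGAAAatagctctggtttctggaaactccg
Ifit1: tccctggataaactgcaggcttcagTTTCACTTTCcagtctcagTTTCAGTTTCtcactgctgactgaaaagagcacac
Irgm1: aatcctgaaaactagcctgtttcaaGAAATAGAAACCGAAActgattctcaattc
Bst2: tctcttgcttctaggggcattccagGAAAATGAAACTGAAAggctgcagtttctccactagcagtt
Igtp: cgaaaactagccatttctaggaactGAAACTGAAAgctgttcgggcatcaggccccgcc
Gbp7: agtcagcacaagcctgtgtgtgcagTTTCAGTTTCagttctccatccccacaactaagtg
In *Igtp* the match begins 34 bases before the gene start, and a gamma-activated site word begins 45 bases before it. In *Bst2* such a word begins 136 bases before the start and overlaps a response element match. *Gbp7* holds 2 such words further upstream, at 106 and 87 bases before the start.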

How the data were processed

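Left ventricles of 3 WT and 4 A178D mice had been sequenced as stranded poly(A) libraries. The deposited values were raw counts for each Ensembl gene, to which the authors had applied no normalization. According to the submitters' processing notes, bcl2fastq 2.18.0.12, HISAT2 2.1.0, SAMtools 1.6, DESeq2 1.26.0 and GRCm38 were used, with no counting program named. A second deposited table, divided by size factors, was not used. Names came from GENCODE M21, in which 300 of the 21257 entries had none. Of these entries, 442 in 219 sets, with at least 30 counts in all, had identical counts in every library, and each set was kept as 1. Below that total, only repeats of the same identifier with the same counts were dropped, which left 20927 entries. Entries reaching 10 counts in 3 or more libraries were tested between genotypes with edgeR 4.0.16 (quasi-likelihood, TMM) in R 4.3.3, with Benjamini-Hochberg adjustment over all 13894 tested genes and a threshold of 0.05. The lowest p that exact permutation of 3 and 4 hearts allows is 0.0286 (two-sided). Alternatives were DESeq2 1.42.0, its size factors in edgeR, limma-voom (limma 3.58.1), no filter, a filter requiring 10 counts throughout, a replicate term, offsets for length and GC content (mgcv 1.9.3), halved counts, each heart omitted in turn and, chosen after seeing the data, the table as deposited. Levels per length are CPM per kb of exon. Promoters were RefSeq sequences of GRCm38.p6.

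Members are given in every heart if called, if at an unadjusted p under 0.05, if among the 5 highest in level per length, the 5 most variable, or the 3 highest and 3 lowest log2 fold changes. From the pathway lists, genes called or at an unadjusted p under 0.05 are named with the most abundant receptor and transcription factor, and from the marker lists the most abundant gene and any called. *Irf7* and *Irgm1* in every heart, and other genes outside this rule, were chosen after their values were seen. Members and lists were chosen with earlier results of these data known.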

Additional observations from a re-analysis of the deposited data

Results flagged for a closer look

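*Irf7* was at 25.3 CPM in A178D replicate 2, far from the other 3 A178D hearts at 18.4 to 19.5 CPM. *Irgm1* was at 48.2 CPM in the same heart, against 28.6 to 30.2 CPM in the others. These were 2 of 54 groups of 4 hearts looked at, and chance alone marks about 1 in 20 such groups.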

How the results depend on the processing

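Of 464 values of 29 named genes under the 16 alternatives, 435 kept their direction and side of the threshold, 12 reversed, 12 lost and 5 gained a call. DESeq2 called 290 genes higher, 375 lower and 1 member higher. With length and GC offsets 277 genes were lower and *Gbp7* was at 0.027 on the log2 scale. Without a filter 1 member was higher. In the replicate block *Igtp* was at -0.074, the median member at 0.07, and 24 members were above 0. A178D replicate 2 has no WT heart of its number, so it does not enter the genotype difference in that fit. Same-numbered WT and A178D hearts had correlations of 0.00185, -0.0261 and -0.0197 across all tested genes, so no effect shared across genes was seen. An effect limited to the members would not show there and was not tested. By the median member, replicate 3 lay above replicates 1 and 4 in both genotypes. The labels do not state whether same-numbered hearts were processed together. With 1 heart omitted, genes called higher ranged from 22 to 215, genes called lower from 31 to 238, members called higher from 0 to 1 and lower from 0 to 0, the median member from 0.03 to 0.24 and members above 0 from 23 to 36. Log2 fold changes then ranged from -0.052 to 0.47 for *Iigp1*, -0.12 to 0.82 for *Igtp*, -0.29 to 0.18 for *Gbp7*, -0.042 to 0.60 for *Ifit1* and -0.20 to 0.0091 for *Cmpk2*. The cause was not tested. With 3 and 4 hearts, small differences of single members may have been missed. The members' SD within a genotype had a median of 0.24 on the log2 scale, from 0.084 for *Trim25* to 0.885 for *Zbp1*. What size of difference could be detected was not tested.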
